A study of Homo sapiens with 6 samples.

Results

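Among the mature miRNAs that miRBase lists for human cells, some have sequences that also occur in ribosomal RNA (rRNA), transfer RNA (tRNA) or the spliceosomal U2 small nuclear RNA. The 10 entries hsa-miR-1246, hsa-miR-1290, hsa-miR-1260a, hsa-miR-1260b, hsa-miR-4454, hsa-miR-4286, hsa-miR-3648, hsa-miR-3687, hsa-miR-663a and hsa-miR-6087 were chosen by name as such entries, out of 2588 in the count tables. They were followed in A549 cells, a human lung adenocarcinoma line, in which METTL1 had been knocked down with a doxycycline-inducible short hairpin RNA. METTL1 is the methyltransferase that places N7-methylguanosine (m7G) in tRNA. Small RNA sequencing compared 3 libraries of total RNA (the input) with 3 libraries of RNA recovered with an anti-m7G antibody (m7G-RIP), and both groups carried the knockdown at day 5 of doxycycline at 200 ng/ml. No library of METTL1-proficient cells and no IgG control library was analysed here, so the ratios below are of antibody-bound RNA to input in knockdown cells, and they do not measure an effect of METTL1. The amount of RNA that the antibody recovered was not known, so each ratio is relative to the other miRNAs in the same libraries.

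Some of the RNAs that these entries resemble carry m7G or a relative of it. Many tRNAs hold m7G in the variable loop, upstream of the 3′ end, where the sequence CCA is added to every tRNA after transcription. The 18S rRNA of the small ribosomal subunit carries an internal m7G as well. It is cut from a 45S precursor that also holds the 5.8S and 28S rRNAs, and the external transcribed spacers (ETS) at both ends of this precursor are removed during maturation. The U2 RNA has a trimethylguanosine cap at its 5′ end. Because a read of about 20 bases cannot by itself tell a miRNA from a piece of a longer RNA of the same sequence, the term entry is used here for a row of the count tables, with no claim about the molecule behind it.

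The mature sequences are given first because they set what each entry can be. The set of RefSeq mature sequences (GRCh38.p14) used here held 7 of the 10. It lacked hsa-miR-3687, hsa-miR-4286 and hsa-miR-6087, which does not mean that no sequence is known. Capitals mark the seed of each miRNA, bases 2 to 8, which pairs with target mRNAs. They were compared with 484 annotated rRNA, tRNA and U2 genes, allowing at most 1 mismatch and no gap. In the stretches named as U2 or tRNA, the capital marks the base that differs from the miRNA named, and each tRNA ends in the added CCA.
hsa-miR-1246: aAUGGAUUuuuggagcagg
hsa-miR-1290: uGGAUUUUuggaucaggga
U2 stretch matching hsa-miR-1290: uggauuuuuggaGcaggga
hsa-miR-1260a: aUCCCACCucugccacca
hsa-miR-1260b: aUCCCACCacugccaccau
tRNA-Leu 3′ end matching hsa-miR-1260a: aucccaccGcugccacca
hsa-miR-4454: gGAUCCGAgucacggcacca
tRNA-His 3′ end matching hsa-miR-4454: gAauccgagucacggcacca
hsa-miR-3648: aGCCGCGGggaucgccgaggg
hsa-miR-663a: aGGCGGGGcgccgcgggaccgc

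Of these 7 sequences, 6 matched U2, tRNA or rRNA by this rule. hsa-miR-3687, hsa-miR-4286 and hsa-miR-6087 were not checked. hsa-miR-1246 matched U2 (gene RNU2-1, chr17:43233866-43233884, minus strand) without a mismatch, at bases 94 to 112 of 188. hsa-miR-1290 matched an overlapping stretch, bases 96 to 114 (chr17:43233864-43233882, minus strand), with the substitution U13G. Substitutions are written with the base of the miRNA first and are numbered from 1 at its 5′ end. hsa-miR-1260a matched the 3′ ends of 12 tRNA-Leu genes with U9G, at bases 68 to 85 of 85 in TRL-AAG1-1. hsa-miR-1260b shared the seed of hsa-miR-1260a and differed from it by U9A over 18 shared bases, and over the same bases it differed from the tRNA-Leu end by A9G. Its last base lay past that end, so by the rule of at most 1 mismatch over the whole sequence it was not a match. hsa-miR-4454 matched the 3′ ends of 9 tRNA-His genes with G2A, at bases 56 to 75 of 75 in TRH-GTG1-1. The tRNA matches therefore lay at the 3′ end, away from the variable loop. Both rRNA matches were exact and lay in the 5′ ETS of the 45S precursor, hsa-miR-663a at bases 2050 to 2071 and hsa-miR-3648 at bases 2513 to 2533, which is 1572 and 1110 bases before the 18S rRNA in the gene copy RNA45SN2.

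The annotated hairpins, in GRCh38 coordinates, lay elsewhere in the genome for most of these entries. MIR1246 lies at chr2:176600980-176601052 on the minus strand, opposite an intron of the non-coding gene LINC01117. MIR1290 lies at chr1:18897071-18897148 on the minus strand, in an intron of ALDH4A1. MIR1260A is at chr14:77266218-77266290 on the plus strand, opposite an exon of NGB. MIR1260B is at chr11:96341438-96341526 on the plus strand, opposite an exon of MAML2. MIR4454 is at chr4:163093574-163093628 on the minus strand, in no annotated protein-coding or long non-coding gene. MIR663A is at chr20:26208186-26208278 on the minus strand, in an exon of its host gene MIR663AHG. A first annotated copy of the miR-3648 hairpin, MIR3648-1, is at chr21:8208473-8208652 on the plus strand, inside the rRNA gene RNA45SN2, and the other is at chr21:8986999-8987178. The mature sequences also recurred. The sites given were counted on the assembled chromosomes and mitochondrial DNA of GRCh38 only, so copies on unplaced scaffolds or missing from the assembly are not included. hsa-miR-1246 occurred at 20 places in the genome without a mismatch, 13 of them on chromosome 17. hsa-miR-663a occurred at 5, of which 4 were on chromosome 21. All 4 exact sites of hsa-miR-3648 were on chromosome 21. With 1 mismatch, hsa-miR-4454 had a further 188 sites and hsa-miR-1260a 75.

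The total RNA libraries held 9155690 to 10753443 counts and the m7G-RIP libraries 2649238 to 3106556. A count of 0 in a single library allows up to 0.338 to 0.394 CPM (counts scaled to a common library size, after TMM) in the input and 0.803 to 0.941 CPM in m7G-RIP, counting error only. The titles and cell line labels name A549 for all libraries, whereas the growth text of the m7G-RIP libraries describes the medium of Caco-2, an intestinal line. As a check of the line, 6 of 6 epithelial marker miRNAs had counts, with a summed level of 528 to 560 CPM in the input and 217 to 283 CPM in m7G-RIP. Most of it was miR-200b-3p, at 416 to 433 CPM in the input and 131 to 161 CPM in m7G-RIP. By contrast, miR-141-3p reached at most 0.677 CPM and was at 0 throughout m7G-RIP, and miR-205-5p was at 0 in most libraries. Both A549 and Caco-2 are adenocarcinoma lines, and no library of known Caco-2 cells was set beside these. Which of the 2 lines the epithelial list fits was therefore not tested. Of 4 intestinal and hepatic markers 3 had counts, at 21581 to 22185 CPM in the input and 2906 to 3180 CPM in m7G-RIP, nearly all of it miR-192-5p, while the hepatocyte miRNA miR-122-5p was at 0. The blood cell markers miR-142-3p, miR-142-5p and miR-223-3p were at 0 in every library, and all 5 blood cell markers summed to at most 1.57 CPM. The muscle miRNAs miR-1-3p, miR-133a-3p and miR-206 summed to 9.07 to 11.8 CPM in the input and 0.535 to 117 CPM in m7G-RIP, with the highest value in m7G-RIP replicate 2. Their part in the results below was not tested. In bulk RNA, a change in the number of cells holding an RNA and in its amount per cell cannot be told apart. The labels do not say that replicates came from separate cultures, so p-values measure only the spread between these libraries.

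Of the 10 entries, 3 were recovered in m7G-RIP above their level in total RNA, hsa-miR-6087, hsa-miR-1246 and hsa-miR-3648, and none was depleted. Whether an entry was tested depended on its counts. The filter on low counts kept 620 miRNAs of the 2588, among them 6 of the 10 entries. hsa-miR-1260a, hsa-miR-1290, hsa-miR-4286 and hsa-miR-4454 were too low to pass it. Of all tested miRNAs 23.5% were called enriched and 29.2% depleted (edgeR quasi-likelihood test, adjusted p under 0.05). In 29.5% of them all 3 m7G-RIP libraries lay above all 3 total RNA libraries, and in 36.5% all 3 lay below. The 6 entries stood at 3 called enriched and 0 called depleted (0 also at an unadjusted edgeR p under 0.05, and 0 with DESeq2 and limma-voom), and the same 3 had m7G-RIP libraries that all lay above total RNA. None had all m7G-RIP libraries below. The log2 ratio of m7G-RIP over total RNA was above 0 for 5 of the 6 entries with TMM, beside 48.7% of all tested miRNAs, and for 6 of 6 with library size alone, beside 57.1%. The latter scaling raised the median ratio, and it called 34.8% of all tested miRNAs enriched and 22.7% depleted, so enriched miRNAs made 60.5% of the calls in place of 44.6% with TMM. With TMM its median was 1.42 over the 6 entries and -0.07 over all tested miRNAs. Since the entries were chosen with earlier results of these data known, and since those that passed the filter did so on their counts, these counts are a description. hsa-miR-1246 passed the filter only through its m7G-RIP libraries, so its place among the 6 depended on its being high there.

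**Figure D1:**
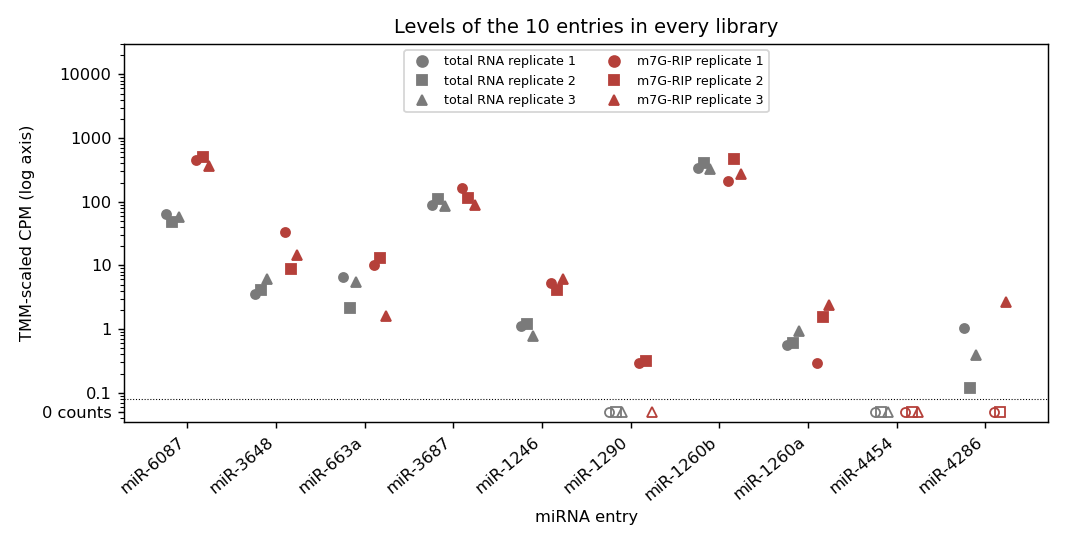
Level of each of the 10 entries in each of the 6 libraries, as TMM-scaled CPM on a log axis. Grey marks stand for total RNA, red marks for m7G-RIP, the mark's shape gives the replicate number, and open marks below the dotted line are counts of 0. The red marks of miR-6087 (367 to 498 CPM) all lie above the grey ones (48.6 to 65.1 CPM), whereas those of miR-1260b and miR-3687 overlap the grey ones.

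hsa-miR-6087 had the highest ratio of the 10 entries. It had 577, 409 and 433 counts in total RNA replicates 1, 2 and 3 and 1508, 1586 and 1373 counts in m7G-RIP, although the m7G-RIP libraries were the shallower ones. After scaling by the trimmed mean of M values (TMM) these were 65.1, 48.6 and 56.9 CPM in the input and 444, 498 and 367 CPM in m7G-RIP. The lowest m7G-RIP library was thus far above the highest total RNA library, and the replicates of each group lay close together. The mean rose from 56.9 ± 8.24 CPM to 436 ± 65.5 CPM (SD, n = 3 each), which is 2.94 ± 0.188 on the log2 scale (SE; edgeR adjusted p = 2.3e-06) or 7.67-fold. That placed it at rank 26 of the 620 miRNAs tested. Under 13 other fits, including another tool, other scalings and the loss of any library, the ratio ranged from 2.66 to 3.49 and passed the threshold in all 13.

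hsa-miR-3648, which matches the 5′ ETS, was enriched but with widely spread replicates. It had 32, 34 and 46 counts in total RNA and 114, 28 and 54 in m7G-RIP. Scaled, it had 3.61, 4.04 and 6.05 CPM in the input and 33.6, 8.79 and 14.4 CPM in m7G-RIP. All m7G-RIP libraries were above all total RNA libraries, and m7G-RIP replicate 1 was well above the other two. The mean was 4.56 ± 1.3 CPM in the input and 18.9 ± 13.0 CPM in m7G-RIP (SD, n = 3 each). The log2 ratio was 2.05 ± 0.592 (SE; edgeR adjusted p = 0.0172), or 4.14-fold. Without m7G-RIP replicate 1 it was 1.15 with an edgeR adjusted p of 0.13, and without total RNA replicate 1 it was 1.94 with an edgeR adjusted p of 0.0557, so the call rests on these libraries.

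hsa-miR-1246, the exact U2 match, was also called enriched, from few counts. It passed the filter on low counts only through its m7G-RIP libraries, the group where it was high, so the filter favoured a ratio above 0. It had 10, 10 and 6 counts in total RNA and 18, 13 and 23 in m7G-RIP. These were 1.13, 1.19 and 0.789 CPM in the input and 5.3, 4.08 and 6.15 CPM in m7G-RIP, so the groups did not overlap. The mean was 1.03 ± 0.215 CPM in the input and 5.18 ± 1.04 CPM in m7G-RIP (SD, n = 3 each). The log2 ratio was 2.30 ± 0.762 (SE; edgeR adjusted p = 0.0294), or 4.92-fold. The call was lost when any one of the 3 total RNA libraries was left out (edgeR adjusted p = 0.146, 0.153 and 0.154 without replicate 1, 2 and 3), without m7G-RIP replicate 1 (0.0693) and without m7G-RIP replicate 3 (0.113). The log2 ratio itself stayed between 1.96 and 2.86 in the 12 other fits that kept it. hsa-miR-1290, which matches the same part of U2 with 1 mismatch, had no count in 30169733 total RNA counts, which allows up to 0.121 CPM over that group. It had 1, 1 and 0 counts in m7G-RIP, at or under the limit, so no fold is given.

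hsa-miR-663a, the other exact 5′ ETS match, was not separated from total RNA. It had 59, 18 and 42 counts in total RNA and 34, 42 and 6 in m7G-RIP. The scaled levels were 6.65, 2.14 and 5.52 CPM in the input and 10.0, 13.2 and 1.61 CPM in m7G-RIP. The lowest value of all was thus in m7G-RIP replicate 3 and the highest in m7G-RIP replicate 2. The log2 ratio was 0.79 ± 0.849 (SE; edgeR adjusted p = 0.461), and no call was made in any of the 12 other fits that kept it, in which the ratio ranged from 0.10 to 1.33.

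hsa-miR-3687 was among the more highly counted of these entries and overlapped between the groups. It had 794, 930 and 644 counts in total RNA and 560, 368 and 332 in m7G-RIP. Scaled, these were 89.6, 110 and 84.6 CPM in the input and 165, 115 and 88.8 CPM in m7G-RIP, with m7G-RIP replicate 3 inside the range of total RNA. The means were 94.9 ± 13.7 and 123 ± 38.6 CPM (SD, n = 3 each) and the log2 ratio 0.37 ± 0.249 (SE; edgeR adjusted p = 0.237). Without m7G-RIP replicate 1 the ratio was -0.11. With library size alone in place of TMM it was 0.94 (edgeR adjusted p = 0.0143), and with library sizes that leave out the 10 most abundant miRNAs it was 0.85 (edgeR adjusted p = 0.0248). Those scalings raised the median over all tested miRNAs by 0.553 and 0.453 on the log2 scale, and relative to that median the entry stood at 0.45 with TMM, 0.46 with library size alone and 0.47 with the third scaling.

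hsa-miR-1260b had the most counts of the 10 entries in total RNA and was not called in either direction. It had 3035, 3369 and 2486 counts in total RNA and 719, 1501 and 1005 in m7G-RIP. The scaled levels were 342, 400 and 327 CPM in the input and 212, 471 and 269 CPM in m7G-RIP. Replicate 2 of m7G-RIP was above every total RNA library and the other two were below, so the groups overlapped on both sides. The means were 356 ± 38.7 and 317 ± 136 CPM (SD, n = 3 each). The log2 ratio was -0.17 ± 0.268 (SE; edgeR adjusted p = 0.616). It was -0.73 without m7G-RIP replicate 2 (edgeR adjusted p = 0.0111) and 0.37 with library size alone (edgeR adjusted p = 0.224). Relative to the median of all tested miRNAs, which that scaling raised as well, it was -0.11 with library size alone and -0.10 with TMM, so it lay close to the median under both. Over the 6 libraries the log2 level most like it was that of miR-146b-5p (Pearson r = 0.945), followed by miR-431-5p (0.914) and miR-151b (0.909). These are descriptions over 6 libraries that share the same 2 groups.

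The near-identical hsa-miR-1260a was counted as a separate row with 5, 5 and 7 counts in total RNA and 1, 5 and 9 in m7G-RIP, far below hsa-miR-1260b. How reads lying on both were divided was not stated, so their separate levels are uncertain. With both rows summed before the fit, the log2 ratio was -0.165 against -0.169 for hsa-miR-1260b alone. hsa-miR-4454, the tRNA-His match, had no count in any of the 6 libraries, which allows up to 0.121 CPM over the total RNA group and 0.291 CPM over the m7G-RIP group. hsa-miR-4286 had 9, 1 and 3 counts in total RNA and 0, 0 and 10 in m7G-RIP. Counts in every library were found for 7 of the 10 entries, and counts in at least 1 library for 9.

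Together, the 10 entries were a small part of the libraries whose make-up differed between the groups. They took 0.042%, 0.0465% and 0.0401% of all counts in total RNA replicates 1, 2 and 3, and 0.112%, 0.128% and 0.0905% in m7G-RIP. All 3 m7G-RIP libraries were above all 3 total RNA libraries, with means of 0.0429% ± 0.00333 and 0.11% ± 0.0189 (SD, n = 3 each). On this scale, library size alone, the median log2 ratio over all tested miRNAs was 0.479, so a share can rise without enrichment beyond that median. hsa-miR-6087 went from a mean of 0.00469% to 0.0528% of all counts. hsa-miR-1260b, which was not called, went from 0.0294% to 0.0379%. Within the counts of these entries, hsa-miR-1260b took 68.5% ± 1.81 in total RNA and 34.1% ± 9.12 in m7G-RIP, and hsa-miR-6087 took 8.56% to 12.8% in total RNA and 48.2% ± 3.19 in m7G-RIP (SD, n = 3 each). These shares are of raw counts, are not set per length, and are given with no test.

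**Figure D2:**
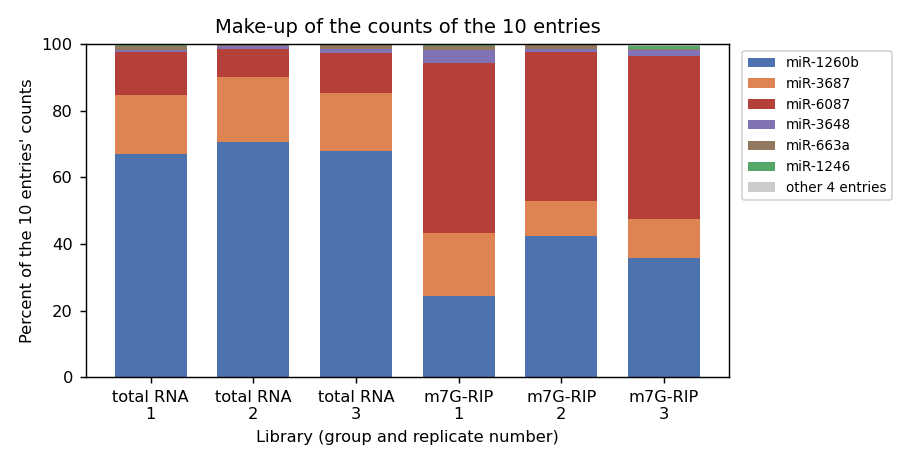
Make-up of the counts of the 10 entries in each library, as stacked bars in percent of their summed raw counts. miR-1260b (blue) is the largest part of each total RNA bar (mean 68.5%), and miR-6087 (red) is the largest part of each m7G-RIP bar (mean 48.2%).

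The same search was run over the other rows of the tables, to see how further entries of this kind behaved. It found 14 other entries within 1 mismatch of an annotated rRNA, tRNA or U2 sequence, of which 7 passed the filter. Of these 7, 4 were called enriched and 0 depleted, beside the 23.5% and 29.2% of all tested miRNAs. All 7 log2 ratios were above 0, from 0.88 to 3.09 with a median of 1.32, and in 6 of the 7 all 3 m7G-RIP libraries were above all 3 total RNA libraries. These counts include hsa-miR-4488, whose total RNA counts alone (16, 23 and 7) would not have passed the filter. The filter thus favoured a ratio above 0 for hsa-miR-4488, which was not called enriched. With exact matches alone the list held 10 entries, 4 tested, of which 1 was called enriched. The sequences of the 6 with the highest mean level are shown with the seed in capitals, to set beside those above.
hsa-miR-3182: gCUUCUGUaguguaguc
hsa-miR-7704: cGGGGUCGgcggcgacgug
hsa-miR-4485-3p: uAACGGCCgcgguacccuaa
hsa-miR-1268b: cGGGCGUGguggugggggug
hsa-miR-4497: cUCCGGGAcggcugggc
hsa-miR-663b: gGUGGCCCggccgugccugagg

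hsa-miR-3182 had a ratio close to that of hsa-miR-6087. It matched the first 17 bases of a tRNA-Val gene, TRV-CAC2-1, with C17G, so unlike the entries above it lay at the 5′ end of a tRNA. It had 1074, 1073 and 1075 counts in total RNA and 2613, 3206 and 5740 in m7G-RIP, and its mean rose from 130 ± 10.3 CPM to 1104 ± 392 CPM (SD, n = 3 each) with no overlap. Its log2 ratio was 3.09 ± 0.245 (SE; edgeR adjusted p = 7.75e-06), and it passed the threshold in 13 of 13 other fits. Adding CCA to the tRNA genes brought in 1 more tested entry, hsa-miR-7977, which was named after its values were seen. It lay in the other direction, at -1.24 ± 0.503, and did not pass the threshold (SE; edgeR adjusted p = 0.0655). All 3 of its m7G-RIP libraries (4.71, 5.02 and 13.4 CPM) were below all 3 total RNA libraries (16.5, 17.6 and 20.8 CPM).

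hsa-miR-7704, a near match to 28S rRNA, was enriched to a lesser degree. Its levels were 63.0, 55.8 and 55.3 CPM in the input and 148, 112 and 95.5 CPM in m7G-RIP, its log2 ratio was 1.03 ± 0.216 (SE; edgeR adjusted p = 0.0034), and it passed in 13 of 13 other fits. hsa-miR-4497, also in 28S rRNA, had a ratio of 1.47 ± 0.468 (SE; edgeR adjusted p = 0.0247) and passed in 6 of 13 other fits. hsa-miR-4485-3p, an exact match to the mitochondrial 16S rRNA, had a ratio of 0.88 ± 0.285 (SE; edgeR adjusted p = 0.0274) and likewise passed in 6 of 13. Both lost the call when any library other than m7G-RIP replicate 2 was left out. hsa-miR-1268b, in the 3′ ETS, and hsa-miR-663b, in the 5′ ETS 1508 bases before the 18S rRNA, did not pass, at 1.32 (edgeR adjusted p = 0.111) and 1.02 (edgeR adjusted p = 0.26). hsa-miR-1268b passed in 3 of 13 other fits, while hsa-miR-663b passed in 0 of 13 and was at 0.073 without m7G-RIP replicate 1.

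**Figure D3:**
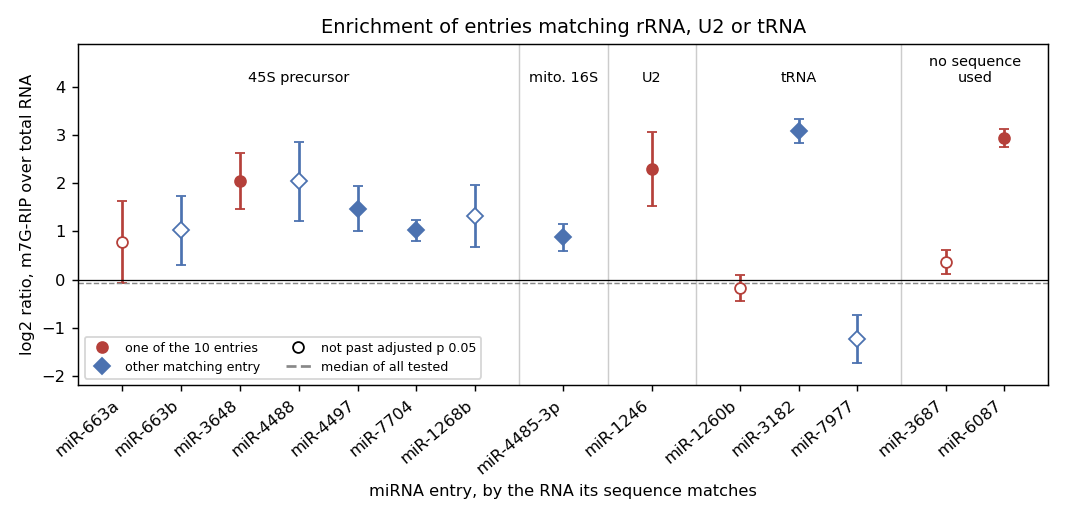
log2 ratio of m7G-RIP over total RNA, with its SE, for the tested entries, grouped by the RNA that their sequence matches, where one was available (3 against 3 libraries). Red circles are the 6 tested members of the list of 10, blue diamonds are other matching entries, filled marks passed an edgeR adjusted p of 0.05, and the dashed line is the median of all tested miRNAs (-0.07). miR-1260b is placed with tRNA by its first 18 bases and miR-7977 by a match that uses the added CCA. No sequence was available here for miR-6087 and miR-3687, which stand apart on the right. With TMM, miR-1260b and miR-7977 are the only 2 marks below 0, and miR-1260b lies 0.10 below the dashed line (0.11 with library size alone).

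Entries that match the 45S precursor had ratios above 0 whether the matched stretch lay in a spacer or in the mature rRNA. The tables held 11 such entries and 7 were tested, including hsa-miR-663a and hsa-miR-3648. All 7 had log2 ratios above 0, beside 48.7% of all tested miRNAs, from 0.79 to 2.05 with a median of 1.32. Of these, 3 were called enriched (hsa-miR-3648, hsa-miR-4497 and hsa-miR-7704), beside 23.5% of all tested miRNAs. All 7 were also rich in guanosine (G), at 47.1% to 70.0%, beside a median of 27.8% over tested miRNAs with a sequence. Whether their ratios go with the match or with the G content was not tested. hsa-miR-4488, named after its values were seen, was at 2.04 without passing (edgeR adjusted p = 0.0616). Its total RNA counts alone (16, 23 and 7) would not have passed the filter. Its place here and among the related entries tested thus rests on its m7G-RIP libraries. In 5 of the 7, all 3 m7G-RIP libraries were above all 3 total RNA libraries, beside 29.5% of all tested miRNAs. None of the 7 fell below 0 in any fit that kept it. The SEs of several of these ratios were wide, and differences between entries of the precursor were not tested. None of the matched stretches lay in the 18S rRNA, the one that carries an internal m7G.

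**Figure D4:**
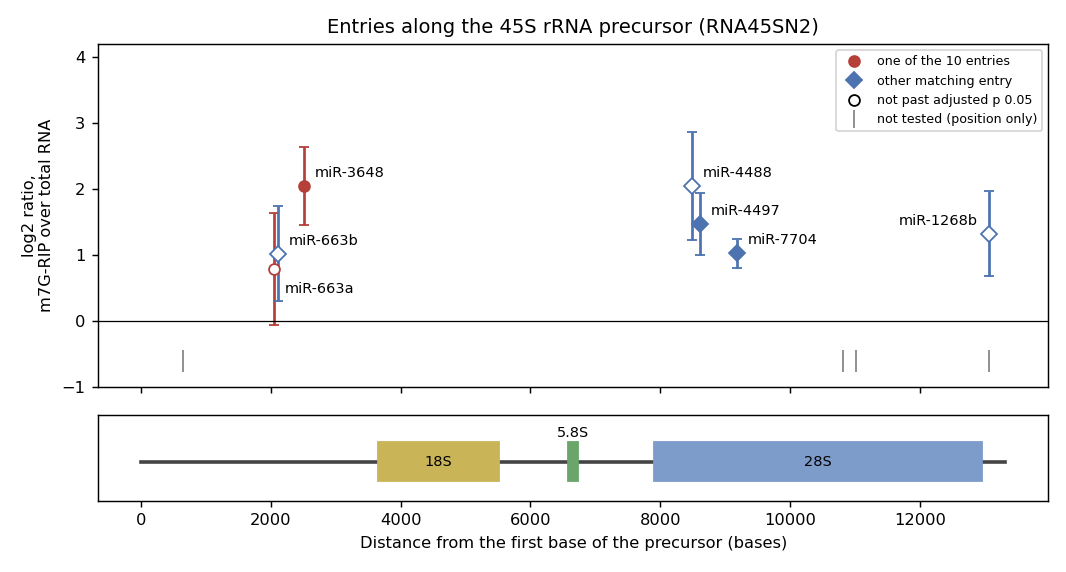
log2 ratio of m7G-RIP over total RNA (upper panel, with SE) against the distance of each entry's match from the first base of the 45S rRNA precursor, with the 18S, 5.8S and 28S rRNAs drawn to scale below. Filled marks passed an edgeR adjusted p of 0.05, and grey ticks are 4 matching entries that were not tested. All 7 tested entries lie above 0 (0.79 to 2.05), and no match lies in the 18S rRNA. miR-4488 was tested only through its m7G-RIP libraries.

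The guanosine content, which sets how many bases could carry m7G, differed widely among these entries. Over 557 tested miRNAs with a RefSeq sequence, the median was 27.8%. All 7 tested entries of the 45S precursor lay above it, from 47.1% (hsa-miR-4497) to 70.0% (hsa-miR-1268b). hsa-miR-663a had 54.5% G and hsa-miR-3648 52.4%, above 95.7% and 94.8% of those miRNAs. hsa-miR-1246 had 36.8%. hsa-miR-1260b, not enriched, had 5.26% G, with 2.69% of tested miRNAs below it. Entries called enriched for which a sequence was available ranged from 25.0% G (hsa-miR-4485-3p) to 57.9% (hsa-miR-7704). Those not called included hsa-miR-1260b at 5.26%, hsa-miR-663a at 54.5% and hsa-miR-1268b, with more G than 99.8% of tested miRNAs. The call of hsa-miR-4485-3p held in 6 of 13 other fits, and no sequence of hsa-miR-6087 was available here. Whether G content goes with the ratio was not tested. None of the 7 members of the list of 10 with a mature sequence held 4 runs of GG. Such runs can fold into a G-quadruplex, and 6.93% of 2281 human mature sequences held them. At that rate, so few entries cannot show a lack of the pattern. Only mature sequences were searched here, whereas the paper looked for such motifs in primary hairpins. Whether the hairpins of these entries hold the pattern was not tested.

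**Figure D5:**
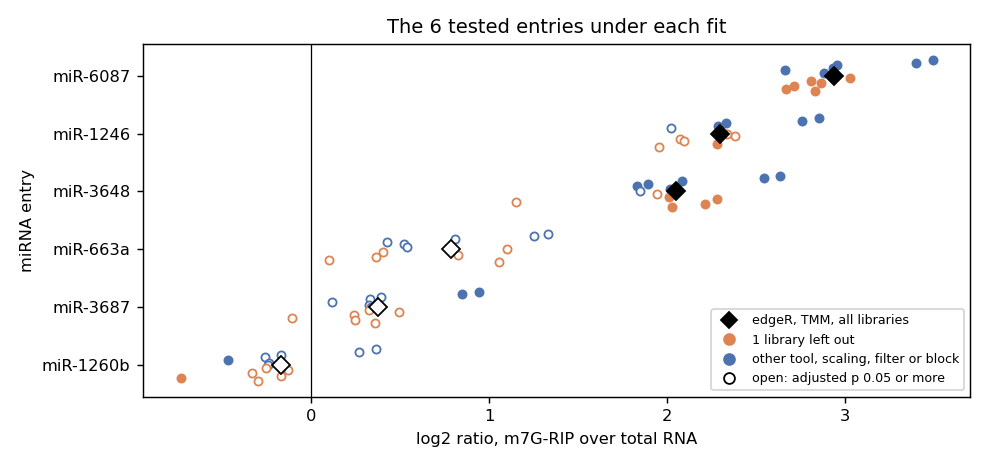
log2 ratio of m7G-RIP over total RNA for the 6 tested entries under each fit: the edgeR fit with TMM and all libraries (black diamonds), fits that leave out 1 library (orange) and fits with another tool, scaling, filter or a replicate block (blue), open where the adjusted p was 0.05 or more. miR-6087 is filled in every fit (2.66 to 3.49), miR-663a is in none, and miR-1260b and miR-3687 have marks on both sides of 0, those of miR-1260b above 0 being the 2 scalings that raise the median of all miRNAs.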

How the data were processed

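Raw read counts for each mature miRNA were deposited for 3 total RNA and 3 m7G-RIP libraries. Per the paper's methods, adaptors were trimmed with Trimmomatic, STAR aligned whole reads to GRCh38, keeping reads with up to 10 locations and at most 1 mismatch, and summarised with featureCounts on miRBase. The submitters' processing notes name Bowtie2 in place of STAR. How reads with several locations were counted was not stated, which bears on entries with repeated sequences. The full sequence of hsa-miR-1246 has 20 exact sites, more than the 10 locations of the STAR setting, so which reads its counts hold is not known. Groups and replicate numbers came from the sample titles.

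Counts were tested in edgeR 4.0.16 (R 4.3.3) with TMM scaling, filterByExpr by group and a robust quasi-likelihood F test, with p-values adjusted by the Benjamini-Hochberg method over all 620 miRNAs tested and a threshold of 0.05. Levels are CPM on the TMM-scaled library size. The code was tested on simulated counts. Replicates differed beyond counting noise (chi-square per degree of freedom 22.23 to 112), so none was merged. No molecular identifiers mark PCR copies, so limits cover counting error only.

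The 10 entries and the lists were chosen with earlier results of these data known. Mature sequences (RefSeq, GRCh38.p14) were searched in 451 tRNA, 31 rRNA and 2 U2 genes of the reference annotation. The 6 related entries named are those with the highest mean level among the tested ones, and the 3 miRNAs set beside hsa-miR-1260b those with the highest correlation on log2 CPM (prior count 2). Hairpin positions are from GENCODE. Alternatives covered library size alone, library sizes without the 10 most abundant miRNAs, DESeq2 1.42.0, limma-voom (limma 3.58.1), no filter, at least 10 counts in every library, a 2-fold threshold, a replicate block, leaving out each library, summing the miR-1260 rows and exact matches. Adding CCA to tRNA genes was an alternative chosen after seeing the data.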

Additional observations from a re-analysis of the deposited data

How the results depend on the processing

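The enrichment of hsa-miR-6087 kept its direction and call in all 13 alternatives, and hsa-miR-663a was never called. The number of the 10 entries called enriched was 1 without total RNA replicate 1 and 1 without m7G-RIP replicate 1 against 3 with all libraries, and 1 was called depleted with no filter on low counts and without m7G-RIP replicate 2 (hsa-miR-1260b, both times) against 0. Leaving out the other libraries left that count at 0. With no filter, hsa-miR-1246 was at 2.02 on the log2 scale (edgeR adjusted p = 0.273) and hsa-miR-1260b at -0.47 (edgeR adjusted p = 0.0281), which is 0.33 above the median of -0.80 over the 1469 miRNAs then tested. hsa-miR-1260b was at 0.37 with library size alone and at 0.27 with library sizes without the 10 most abundant miRNAs, scalings that raised the median of all miRNAs by 0.553 and 0.453, and relative to that median it stayed at -0.11 under both (-0.10 with TMM). hsa-miR-3687 was called under the same 2 scalings, at 0.94 and 0.85, and turned to -0.11 without m7G-RIP replicate 1. Leaving out 1 library in turn gave 1.96 to 2.38 for hsa-miR-1246, 1.15 to 2.28 for hsa-miR-3648, -0.11 to 0.49 for hsa-miR-3687 and -0.73 to -0.13 for hsa-miR-1260b. The related entries called enriched were 2 with no filter, 2 to 5 when 1 library was left out, and 1 with exact matches alone, against 4. With the 10 most abundant miRNAs left out of the denominator, the share of the 10 entries was 0.194% in total RNA and 0.466% in m7G-RIP. With at least 10 counts in every library, hsa-miR-1246 and hsa-miR-663a gave no value.

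With the replicate number as a replicate block, 1 of the 10 entries and 2 of the related entries were called enriched. hsa-miR-1246 was at 2.30 (edgeR adjusted p = 0.131) and hsa-miR-3648 at 1.85 (edgeR adjusted p = 0.0568). Libraries with the same number did not deviate together, with correlations of -0.00947, 0.00853 and 0.0703 over 639 miRNAs averaging 10 counts or more. Such correlations cannot tell whether an input and an m7G-RIP library came from the same RNA, since noise between libraries can hide it. In the paper's protocol the input is set aside from the decapped RNA before immunoprecipitation. The labels give only replicate numbers, so whether the libraries are paired was not known. hsa-miR-4454 had no count to test, and hsa-miR-1260a, hsa-miR-1290 and hsa-miR-4286 were tested only with no filter, where none passed (edgeR adjusted p = 0.788, 0.313 and 0.885). Whether their low counts come from depth or from reads with many locations was not tested.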
